A study of Oryza sativa with 12 samples.

Results

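Plasma membrane intrinsic proteins (PIPs) are the aquaporins of the plant cell membrane. The 10 PIP genes of rice followed here were PIP1-1 (Os02t0666200), PIP1-2 (Os04t0559700), PIP1-3 (Os02t0823100), PIP2-1 (Os07t0448800), PIP2-2 (Os02t0629200), PIP2-3 (Os04t0521100), PIP2-4 (Os07t0448100), PIP2-5 (Os07t0448200), PIP2-6 (Os04t0233400) and PIP2-7 (Os09t0541000). They were chosen by locus identifier, as the named PIP1 and PIP2 genes, among 23892 loci in a table of 249857 transcript sites at which root reads were compared with the Nipponbare reference. Of these 10 genes, 8 had at least 1 site, with 81 sites in 11 transcripts, and PIP2-3 and PIP2-7 had no site and therefore no value here. The table holds only sites where some genotype differed from Nipponbare, so having no site says nothing about whether a gene was expressed.

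The roots came from the super-hybrid rice Xieyou9308, from its male parent R9308, a restorer line, and from its female parent Xieqingzao B, each sampled at the heading and at the tillering stage. Plants were started in the field and then grown in nutrient solution. For each genotype and stage 2 roots were sequenced, 12 samples in all, and the reads of the 2 roots were pooled before the table was made. Each of the 6 combinations of genotype and stage is therefore a single column with no replicate spread, so differences in depth are given without a test, and the intervals printed cover counting error only.

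Aquaporins are membrane channels that let water, and in some cases small solutes such as carbon dioxide, hydrogen peroxide or arsenite, cross along their gradients. PIPs fall into the groups PIP1 and PIP2. PIP2 proteins generally move water on their own, while many PIP1 proteins reach the plasma membrane and act there only when paired with a PIP2. In roots they make up much of the path by which water crosses living cells between the soil and the xylem.

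A level here is the read depth at a site per 1000000 of the column total (RPM). It was averaged over the sites of a transcript that had a depth in all 6 columns. The column total is the depth summed over all sites. At heading it was 9789681 for Xieyou9308, 10809373 for R9308 and 13137256 for Xieqingzao B. At tillering it was 9661512, 13973160 and 10883170 for the same genotypes. A read that covers several sites counts at each of them, so these totals are not library sizes. Sites with a depth in all 6 columns were present in 6 of the PIP genes, namely PIP1-2 (5 sites), PIP1-3 (4), PIP2-1 (4), PIP2-2 (3), PIP2-4 (20) and PIP2-5 (10), and in 19498 transcripts of the whole table. Neighbouring sites share reads, and the same pool of 2 roots stands behind all sites of a column, so sites are not replicates. A lower level in a whole root can come from less RNA per cell or from fewer cells that express the gene, and these cannot be told apart.

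At heading, PIP genes stood highest in Xieqingzao B and, PIP2-1 apart, lowest in the hybrid, though in PIP2-5 the hybrid and R9308 were nearly equal. All 6 measured genes had their highest level of the 6 columns in Xieqingzao B at heading, an order found in 15.5% of all transcripts. The hybrid lay below both parents in 5 of the 6 genes at heading, against 25.9% of all transcripts, and in 5 of 6 at tillering, against 33% of all transcripts. With only the site nearest the 3′ end of each gene, it lay below both parents in 5 of 6 at heading and 3 of 6 at tillering. Xieqingzao B at heading was then the highest column in 5 of 6. The count at heading includes PIP2-5, at 1.86 RPM in the hybrid and 2.03 in R9308. That gap rests on 182 and 219 reads, and at positions 360 and 600 the hybrid was above R9308. PIP2-1 was the exception to the order of the hybrid at both stages.

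**Figure D1:**
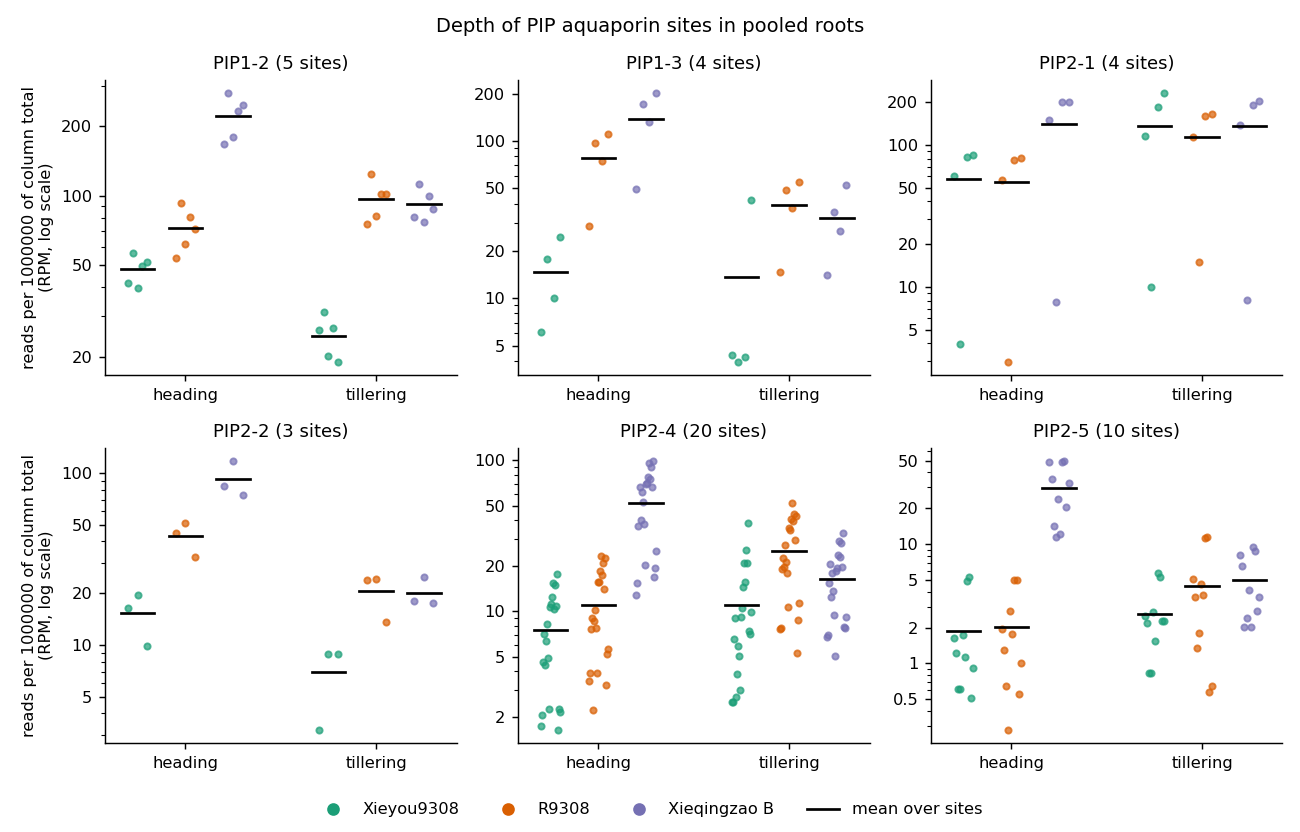
Depth in reads per 1000000 of the column total (RPM, log scale) at each site with a depth in all 6 columns. The 6 PIP genes with such a site are shown, at heading and at tillering. Points are sites, not replicates, and the black line is their mean. At heading the mean for Xieqingzao B was the highest in each panel, from 29.8 RPM in PIP2-5 to 222 RPM in PIP1-2.

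Among the PIP1 genes, PIP1-2 has been linked to carbon dioxide transport in rice. Its mean level at heading was 47.8 RPM in Xieyou9308, 72.1 in R9308 and 222 in Xieqingzao B. The tillering mean was 24.6 RPM in Xieyou9308, 96.8 in R9308 and 91.6 in Xieqingzao B. The hybrid was thus the lowest genotype at both stages, and the parents differed more at heading than at tillering.

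PIP1-3, also called RWC3, is an aquaporin studied in rice under water deficit. Its mean level at heading was 14.7 RPM in Xieyou9308, 77.9 in R9308 and 138 in Xieqingzao B. The tillering mean was 13.6 RPM in Xieyou9308, 39.0 in R9308 and 32.3 in Xieqingzao B. Both parents had more at heading than at tillering, while the hybrid mean hardly differed between stages.

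PIP1-1, the remaining PIP1 gene, had 1 site in each of 2 transcript models, 54 bases apart in numbering, and no call in Xieyou9308 at tillering. At that site of the first model, G992A relative to Nipponbare with positions counted from 1 at the transcript start, the depth at heading was 173 reads in Xieyou9308, 285 in R9308 and 1260 in Xieqingzao B. These were 17.7, 26.4 and 95.9 RPM. At tillering R9308 had 478 reads, or 34.2 RPM, and Xieqingzao B had 446 reads, or 41.0 RPM. The order of the genotypes at heading was that of PIP1-2 and PIP1-3, and only the non-reference base was seen in each column with a call. The caller's quality score at this site was low in some columns, at 6.19 in Xieyou9308 and 3.54 in Xieqingzao B at heading.

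The PIP2 genes include the strongest water channels of the family in yeast assays, PIP2-2, PIP2-4 and PIP2-5 among them. The mean level of PIP2-2 at heading was 15.3 RPM in Xieyou9308, 42.9 in R9308 and 92.0 in Xieqingzao B. The tillering mean was 7.0 RPM in Xieyou9308, 20.5 in R9308 and 20.1 in Xieqingzao B. All 3 genotypes had more PIP2-2 at heading than at tillering, and the parents were nearly equal at tillering.

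PIP2-4 had the most sites. Its mean level at heading was 7.55 RPM in Xieyou9308, 10.9 in R9308 and 52.5 in Xieqingzao B. The tillering mean was 11.03 RPM in Xieyou9308, 24.9 in R9308 and 16.4 in Xieqingzao B. The parents thus changed places between the stages, with R9308 below Xieqingzao B at heading and above it at tillering.

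PIP2-5, the neighbour of PIP2-4 on chromosome 7, had the lowest levels of the 6 genes. Its mean at heading was 1.86 RPM in Xieyou9308, 2.03 in R9308 and 29.8 in Xieqingzao B. The tillering mean was 2.61 RPM in Xieyou9308, 4.44 in R9308 and 5.0 in Xieqingzao B. Only Xieqingzao B at heading stood clear of the other columns, with 3911 reads summed over the 10 sites against 182 in Xieyou9308 and 219 in R9308 at that stage.

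PIP2-1, also on chromosome 7, had another order of genotypes than the rest. Its mean at heading was 57.9 RPM in Xieyou9308, 54.4 in R9308 and 139.2 in Xieqingzao B. The tillering mean was 136 RPM in Xieyou9308, 113 in R9308 and 135 in Xieqingzao B. Here the hybrid lay close to its parents at tillering and close to R9308 at heading.

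PIP2-6, which can carry arsenite, had 5 sites in 2 transcript models, among them 2 pairs that repeat one site with a shift of 112 bases in numbering, and no call in the hybrid at any of them. Its depth in R9308 was 24 to 36 reads at heading and 157 to 171 at tillering, so that each of the 5 sites was lower at heading, with log2 ratios between -2.37 and -1.75. In Xieqingzao B the 3 sites called at both stages had log2 ratios of heading over tillering of 0.15, 0.35 and 0.49, and each of their 95% intervals held 0. At heading R9308 was lower than Xieqingzao B at each of the 4 sites called in both, with log2 ratios between -1.68 and -1.02, and at tillering it was higher at each of 4 sites, with log2 ratios between 0.81 and 1.23. The order of the parents at each stage was that of PIP2-4. Quality scores at these sites were 61 to 168 in R9308 and only 3.54 to 34 in Xieqingzao B. All 5 sites separated the parents, yet no hybrid allele read was available for this gene, and the absent calls cannot be read as a depth of 0.

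The first comparison asks how the levels at heading differed from those at tillering in each genotype, and a gene was counted when the depth summed over its sites differed at least 2-fold. In Xieqingzao B, 5 of 6 PIP genes were at least 2-fold higher at heading and 0 were lower, where 10.4% of all transcripts were higher and 16.1% lower. The median log2 ratio of the 6 genes was 1.89, against -0.04 over all transcripts. PIP2-5 stood highest with a log2 ratio of 2.57, and its 10 sites ranged from 2.27 to 3.17. PIP2-2 followed with 2.20 (2.09 to 2.24 over 3 sites), PIP1-3 with 2.10 (1.8 to 2.31 over 4 sites) and PIP2-4 with 1.68 (0.92 to 2.01 over 20 sites). PIP1-2 had 1.28 (1.06 to 1.5 over 5 sites), and PIP2-1 was level at 0.05 (-0.04 to 0.13 over 4 sites).

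In R9308 the family was divided. There 1 gene, PIP2-2, was at least 2-fold higher at heading, with a log2 ratio of 1.07, where 8.41% of all transcripts were higher. PIP1-3 also had more at heading, with 0.97 to 1.02 at its 4 sites, and its summed log2 ratio of 1.0 was just short of 2-fold before rounding. The 3 genes of the cluster on chromosome 7 were at least 2-fold lower, where 18.9% of all transcripts were lower. Their log2 ratios were -1.19 for PIP2-4, -1.13 for PIP2-5 and -1.06 for PIP2-1. All 20 sites of PIP2-4 and 9 of 10 sites of PIP2-5 were below 0. The remaining site of PIP2-5, nearest the 3′ end, had 0.66 on 11 reads at heading and 9 at tillering. PIP1-2 had -0.43, and the median of the 6 genes was -0.74, against -0.14 over all transcripts.

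In Xieyou9308, 1 gene was at least 2-fold higher at heading, where 15.9% of all transcripts were, and 1 was at least 2-fold lower, where 21% were. The higher one was PIP2-2 with a log2 ratio of 1.12, although its 3 sites ranged from 0.15 to 2.35. The lower one was PIP2-1 with -1.23, and its 4 sites ranged from -1.44 to -0.93. PIP1-2 had 0.96, just under 2-fold, with its 5 sites between 0.68 and 1.44. PIP1-3 had 0.11, PIP2-5 had -0.49 and PIP2-4 had -0.55, each with sites on both sides of 0.

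**Figure D2:**
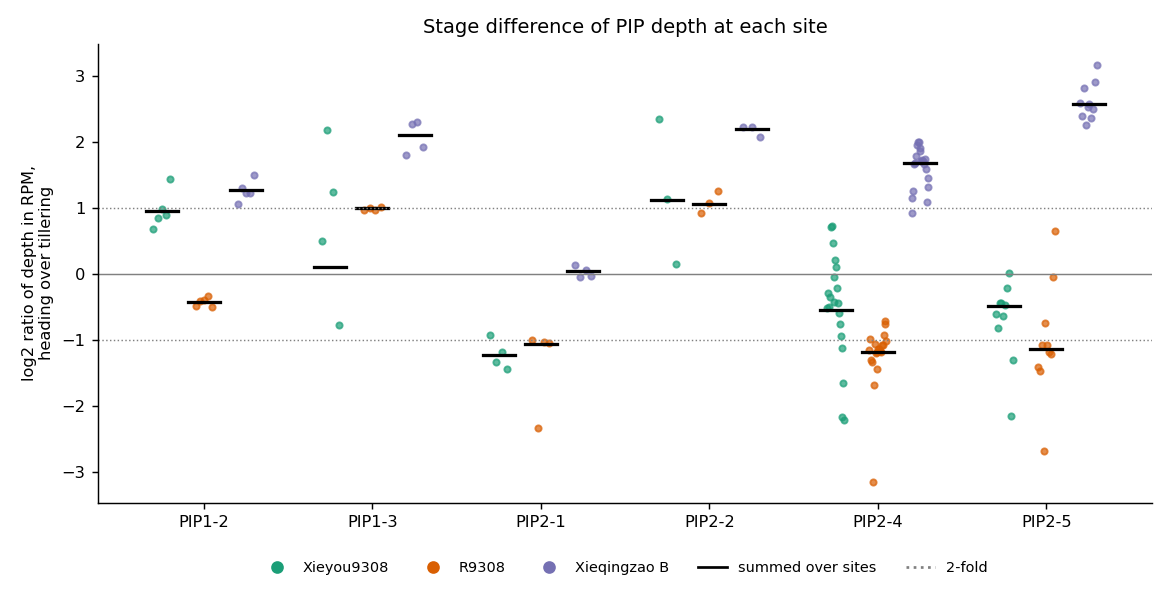
Log2 ratio of depth in RPM at heading over tillering (vertical axis), for the 6 PIP genes and, within each gene, for Xieyou9308, R9308 and Xieqingzao B. Points are sites, black lines are ratios of depth summed over sites, and dotted lines mark 2-fold. In PIP2-4 all 20 sites were above 0 in Xieqingzao B and all 20 below 0 in R9308.

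The stage ratio of Xieqingzao B exceeded that of R9308 in all 6 genes. The difference of the log2 ratios was 3.71 for PIP2-5 and 2.87 for PIP2-4, then 1.70 for PIP1-2, 1.13 for PIP2-2, 1.1 for PIP1-3 and 1.1 for PIP2-1. Over all transcripts its median was also above 0, at 0.09, and 5.42% reached 2 or more. The share of all transcripts with a difference at least as high was 0.73% for PIP2-5 and 1.98% for PIP2-4. It was 7.76% for PIP1-2, 15.2% for PIP2-2, 15.6% for PIP1-3 and 15.6% for PIP2-1. The 6 differences rest on the same 4 columns and share the column of Xieqingzao B at heading.

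The second comparison sets the parents against each other. At heading R9308 was at least 2-fold below Xieqingzao B in 5 of 6 PIP genes, where 13.3% of all transcripts were, and above it in 0, where 14.1% were. The log2 ratio of R9308 over Xieqingzao B was -3.88 for PIP2-5, -2.26 for PIP2-4, -1.62 for PIP1-2, -1.35 for PIP2-1 and -1.10 for PIP2-2. PIP1-3 had -0.83. Every site of all 6 genes was lower in R9308 at heading, and at the best covered site of PIP2-4, position 1054, the log2 ratio was -2.13 with a 95% interval of -2.33 to -1.93.

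At tillering none of these differences was present at that size. R9308 differed at least 2-fold from Xieqingzao B in 0 of 6 genes, where 11.9% of all transcripts were higher and 7.11% lower. The median log2 ratio of the 6 genes was 0.06, against 0.04 over all transcripts. The largest ratio was that of PIP2-4, at 0.61, with 19 of 20 sites above 0. The others lay between -0.25 for PIP2-1 and 0.27 for PIP1-3, and the sign of those nearest 0, PIP1-2 at 0.08 and PIP2-2 at 0.03, depended on the scaling. PIP2-5 had -0.17 with a wide spread over its 10 sites, from -2.48 to 0.88. Of these 10 sites, the 2 nearest the 3′ end had -2.27 (95% interval -3.60 to -1.11) and -2.48 (-3.71 to -1.41), on few reads, so with only the last site it was past 2-fold lower in R9308.

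The third comparison sets the hybrid against the mean of its parents. At heading Xieyou9308 was at least 2-fold below the mid-parent level in 5 of 6 PIP genes, where 6.39% of all transcripts were, and above it in 0, where 9.03% were. The log2 ratio was -3.10 for PIP2-5, -2.88 for PIP1-3, -2.14 for PIP2-2, -2.07 for PIP2-4 and -1.62 for PIP1-2. PIP2-1 had -0.74. The median of the 6 genes was -2.11, against 0.03 over all transcripts.

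At tillering Xieyou9308 was at least 2-fold below the mid-parent level in 3 of 6 genes, where 14.3% of all transcripts were, and above it in 0, where 13.5% were. These were PIP1-2 with a log2 ratio of -1.94, PIP2-2 with -1.54 and PIP1-3 with -1.39. PIP2-4 had -0.90, PIP2-5 had -0.86 and PIP2-1 had 0.13. The comparisons with the mid-parent and between the parents at heading share the columns of both parents.

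The column of Xieyou9308 at tillering differed from the others in how depth was spread along transcripts, and the hybrid values at tillering depend on where the sites lie. Over 8169 transcripts whose first and last sites were at least 600 bases apart, the median log2 ratio of the depth at the last site over that at the first was 1.35 in Xieyou9308 at tillering and 0.45 to 0.58 in the other columns. In PIP1-3 this ratio, between positions 124 and 1031, was 3.27 in Xieyou9308 at tillering and 1.90 to 2.03 in the other columns. In PIP2-4, between positions 52 and 1175, it was 2.00 in Xieyou9308 at tillering and 0.30 to 0.99 elsewhere. At position 1031 of PIP1-3 the hybrid had 24.6 RPM at heading and 41.9 at tillering, whereas at position 280 it had 17.9 at heading and 3.93 at tillering. The stage ratio of PIP1-3 in the hybrid therefore changes sign along the transcript, and it has no single direction. With only the site nearest the 3′ end of each gene, 1 of 6 genes, PIP1-2, stayed at least 2-fold below the mid-parent level at tillering. The hybrid then lay below both parents in 3 of 6 at that stage and in 5 of 6 at heading. The last site of PIP1-2 with a depth in all 6 columns lies at position 400, against positions 774 to 1175 in the other genes. This setting therefore reaches less far along PIP1-2 and cannot show whether its level depends on position. Between the stages in the hybrid, PIP1-2 at position 400 was at least 2-fold higher at heading, with a log2 ratio of 1.44. With the last site alone, 3 genes were at least 2-fold lower, PIP2-4 with -2.21, PIP2-1 with -1.44 and PIP2-5 with -1.31. No share of all transcripts is given for the last site alone, so the counts under this setting stand without a comparison.

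**Figure D3:**
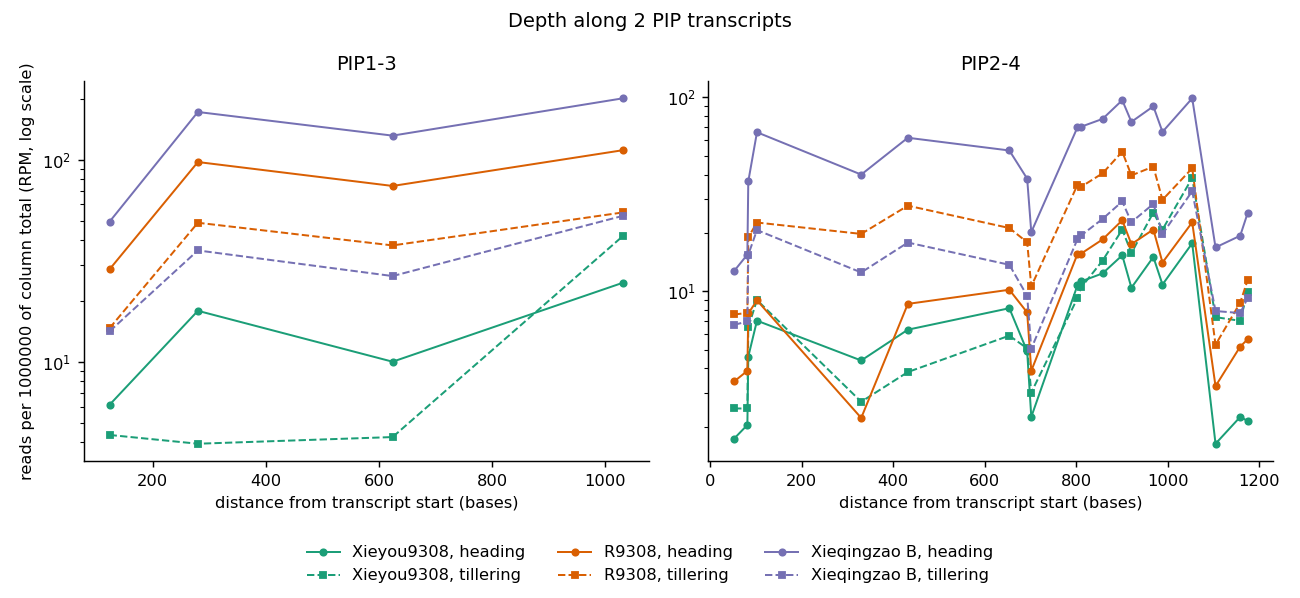
Depth in reads per 1000000 of the column total (RPM, log scale) against distance from the transcript start in bases. PIP1-3 (4 sites) and PIP2-4 (20 sites) are shown, with heading as solid and tillering as dashed lines. In PIP1-3 the hybrid at tillering stayed between 3.93 and 4.35 RPM at the first 3 sites and reached 41.9 RPM at position 1031.

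The profiles of the 6 genes over the 6 columns were also compared with one another, as the distance between log2 levels after each gene was centred. PIP1-3 and PIP2-2 were closest, at 0.85, and PIP2-1 and PIP2-2 farthest apart, at 3.26. PIP2-4 and PIP2-5 lay 1.37 apart. Of 2007 other transcripts with at least 3 sites and a mean depth of at least 100 reads, the profiles nearest to that of PIP2-4 were Os03t0401100-01 at 0.89, Os01t0134700-01 at 1.01 and Os06t0528600-01 at 1.06, against a median of 2.62. They were nearest by this measure alone, over 6 columns.

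The next question was which parental allele the hybrid reads carried, and for most PIP genes the sites could not answer it. The parents carried different single bases at 1 stage or more at 8 of the 81 sites, 5 of them in PIP2-6, 2 in PIP2-2 and 1 in PIP2-1. Over the whole table they did so at 59102 of 249857 sites. PIP1-1, PIP1-2, PIP1-3, PIP2-4 and PIP2-5 had no such site. Both parents and the hybrid carried the same base that differs from Nipponbare in all 6 columns at all 4 sites of PIP1-3, at 17 of 24 sites of PIP2-4, or 70.8%, and at 5 of 10 sites of PIP1-2, but at only 3 of 26 sites of PIP2-5, or 11.5%, and 0 of 2 sites of PIP1-1, against 14.7% of all sites in the table. Hybrid allele reads were therefore available at 3 sites, which passed the depth and quality minimums at heading, and 1 of them passed at both stages. Of the 249857 sites in the table, 17108 passed at heading and 9325 at both stages.

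That site was C493T of PIP2-2, where R9308 carries the reference base C and Xieqingzao B carries T. In Xieyou9308 at heading, 85 reads had the R9308 allele and 75 the Xieqingzao B allele, an R9308 share of 53.1% (95% Wilson interval 45.4 to 60.7%). A 2-sided exact binomial test against equal shares gave p = 0.477, so the alleles could not be told from balance at this depth. In the parents themselves R9308 had 485 reads and Xieqingzao B 1109, which is an R9308 share of 34.7% of the parental RPM. The hybrid ratio lay 1.09 above the parental ratio on the log2 scale, and an exact conditional test on the reads gave p = 8.77e-06 and a Benjamini-Hochberg adjusted p = 0.000201 over 9325 SNPs. This test compares the reads of 3 pools, 1 per genotype, and holds no spread between roots, so its p covers counting error only, here and at the other SNPs, and does not call a difference between the genotypes. Of those SNPs, 17.1% had a biased share in the hybrid at heading and 16.3% differed from the parental ratio.

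At tillering C493T had 31 hybrid reads, 10 for the R9308 allele and 21 for the Xieqingzao B allele, a share of 32.3% (95% Wilson interval 18.6 to 49.9%; exact binomial p = 0.0708). This pair of numbers can also be read as a day and month, and no pair in the whole table forms a calendar day in the opposite order, so the 2 numbers may stand either way round. In the other order the share would be 67.7% (50.1 to 81.4%). At that stage the parental depth was 331 reads for R9308 and 195 for Xieqingzao B, or 56.9% of the parental RPM for R9308. The hybrid ratio minus the parental ratio was -1.47 on the log2 scale as deposited and 0.67 in the other order. It did not pass the exact conditional test as deposited (adjusted p = 0.0825), where 8.13% of 9325 SNPs did, and 16.3% had a biased share at tillering. The R9308 share at heading minus that at tillering was 20.9 percentage points as deposited and -14.6 points in the other order. Fisher's exact test gave p = 0.0486, or 0.41 after adjustment, as deposited and p = 0.168 in the other order, where 2.66% of the SNPs passed. No direction between the stages could be given.

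The second site of PIP2-2, G514A, has its reference base in Xieqingzao B, and R9308 carries A. At heading 66 hybrid reads had the R9308 allele and 85 the Xieqingzao B allele, a share of 43.7% (36.1 to 51.7%; exact binomial p = 0.143). The parents had 391 reads in R9308 and 1288 in Xieqingzao B, or 27.0% of the parental RPM for R9308. The hybrid ratio exceeded the parental ratio by 1.07 on the log2 scale (exact conditional test on the reads of the pools, adjusted p = 0.000372, counting error only). Both SNPs of PIP2-2, which lie close together and share reads, thus had hybrid alleles nearer to balance than the parents at heading. At tillering 20 reads had the R9308 allele and 14 the Xieqingzao B allele, and Xieqingzao B had no call.

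A32G of PIP2-1, with the reference base in Xieqingzao B, gave 79 hybrid reads for the R9308 allele and 108 for the Xieqingzao B allele at heading, a share of 42.2% (35.4 to 49.4%). Its exact binomial p = 0.0403 did not pass the threshold of 0.01, nor did its adjusted p = 0.139. Among the 17108 SNPs that passed the minimums at heading, 20.1% had a biased share and 21.6% differed from the parental ratio. The parents had 142 reads in R9308 and 562 in Xieqingzao B, or 23.5% of the parental RPM for R9308, and the hybrid ratio lay 1.25 above that on the log2 scale (exact conditional test on the reads of the pools, adjusted p = 2.29e-05, counting error only). At tillering the hybrid had 137 and 150 reads, a share of 47.7% (42.0 to 53.5%), with no call in Xieqingzao B. At all 3 SNPs the base that matches the reference had the larger count in the hybrid at heading. Over the 9325 SNPs at that stage the median R9308 share was 50.9% at the 7563 SNPs where R9308 has the reference base and 50% at the 1762 where Xieqingzao B has it.

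**Figure D4:**
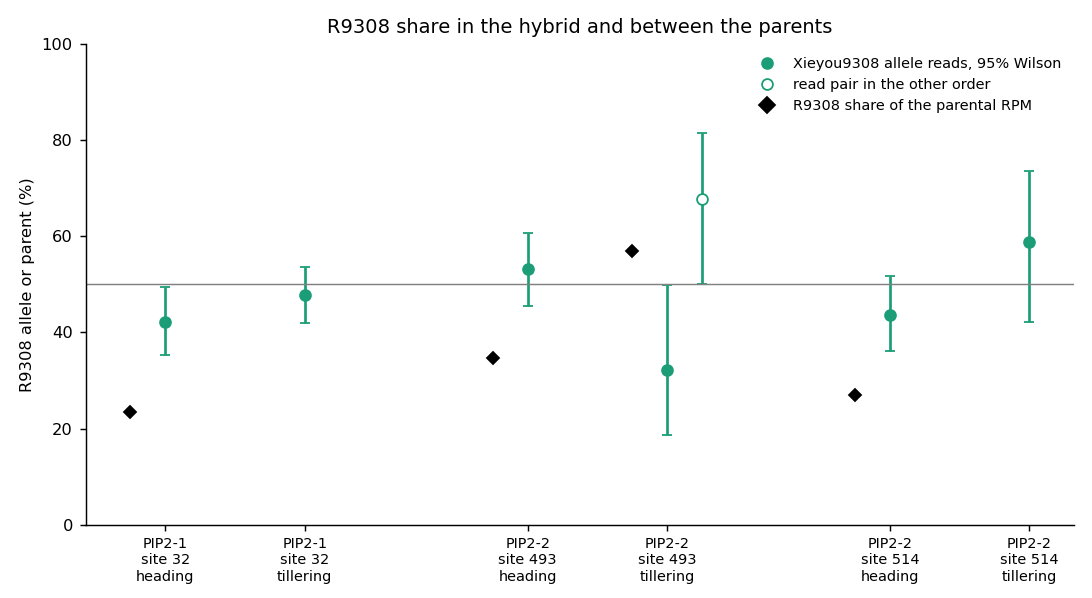
R9308 share in percent at the 3 PIP SNPs, at heading and at tillering. Green points are the share of hybrid reads with the R9308 allele, with 95% Wilson intervals (open where the read pair is put in the other order), and black diamonds are the R9308 share of the parental depth in RPM. At heading the 3 diamonds lie between 23.5% and 34.7%, below all 3 hybrid intervals.

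Each allele of the hybrid can also be set against the same allele in the parent that carries it. As the hybrid has a single copy of each, its allele depth in RPM was doubled. At C493T of PIP2-2 at heading, the R9308 allele stood at a log2 ratio of -1.37 (95% interval -1.72 to -1.03) to R9308 and the Xieqingzao B allele at -2.46 (-2.82 to -2.12) to Xieqingzao B. At G514A the ratios were -1.42 (-1.82 to -1.04) and -2.50 (-2.83 to -2.18) for the same alleles. At heading both PIP2-2 alleles were thus lower in the hybrid pool than in the pool of the parent that carries them, the Xieqingzao B allele more so. At tillering C493T had the opposite order as deposited, with the R9308 allele at -3.52 (-4.59 to -2.62) and the Xieqingzao B allele at -2.04 (-2.77 to -1.39), but the order of that read pair is ambiguous. At A32G of PIP2-1 at heading the R9308 allele stood at 0.30 (-0.12 to 0.70) and the Xieqingzao B allele at -0.96 (-1.27 to -0.66). At tillering the R9308 allele of A32G stood at -0.44 (-0.72 to -0.17), with no call in Xieqingzao B. The values at tillering also carry the uneven depth along transcripts in that hybrid column. In PIP2-2 at tillering the hybrid had 3.21 RPM at position 493 and 8.90 at position 1001, where R9308 had 23.7 and 13.6. Allele level and position are therefore mixed in the ratios at tillering, and their parts were not tested.

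PIP2-5 and PIP2-4 also had sites at which an inbred parent showed 2 bases. PIP2-4, PIP2-5 and PIP2-1 follow each other in this order on chromosome 7 in the RefSeq annotation (ASM3414082v1). Reads of such related neighbours can be placed on either gene, so the levels of these 3 genes are uncertain to that extent, which was not tested. Both parents had 2 bases at 1 stage or more at 11 of 26 sites of PIP2-5, or 42.3%, and at 4 of 24 sites of PIP2-4, or 16.7%, against 18.3% of all sites in the table. PIP1-1, PIP1-3, PIP2-1, PIP2-2 and PIP2-6 had 0 such sites, and PIP1-2 had 1 of 10. PIP2-1 and PIP2-2 each had 1 site with 2 bases in R9308 at tillering and 1 base in the other 5 columns. At A992G of PIP2-1, R9308 had 98 reads with A and 112 with G, and at A782G of PIP2-2 it had 52 with A and 287 with G.

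At other sites 1 parent was pure and the other mixed. At G600A of PIP2-5, R9308 had only A, in 54 reads at heading and 162 at tillering. In Xieqingzao B, A made up 56.6% of 655 reads at heading (95% Wilson interval 52.8 to 60.4%) and 62.5% of 96 reads at tillering (52.5 to 71.5%). The hybrid had A in 82.7% of 52 reads at heading (70.3 to 90.6%) and in 51.0% of 51 reads at tillering (37.7 to 64.1%). G591T, a neighbouring site, gave 57.3% T in Xieqingzao B at heading and 60.2% at tillering, and only T in R9308.

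PIP2-4 had the same pattern at A102G. R9308 had only G, in 97 reads at heading and 316 at tillering. G made up 63.7% of 868 reads in Xieqingzao B at heading (60.5 to 66.8%) and 77.8% of 225 reads at tillering (71.9 to 82.7%). The hybrid had G in 84.1% of 69 reads at heading and in 73.6% of 87 reads at tillering. Base shares at these sites are not allele shares of the hybrid, because a parent that should be inbred already carries both bases.

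**Figure D5:**
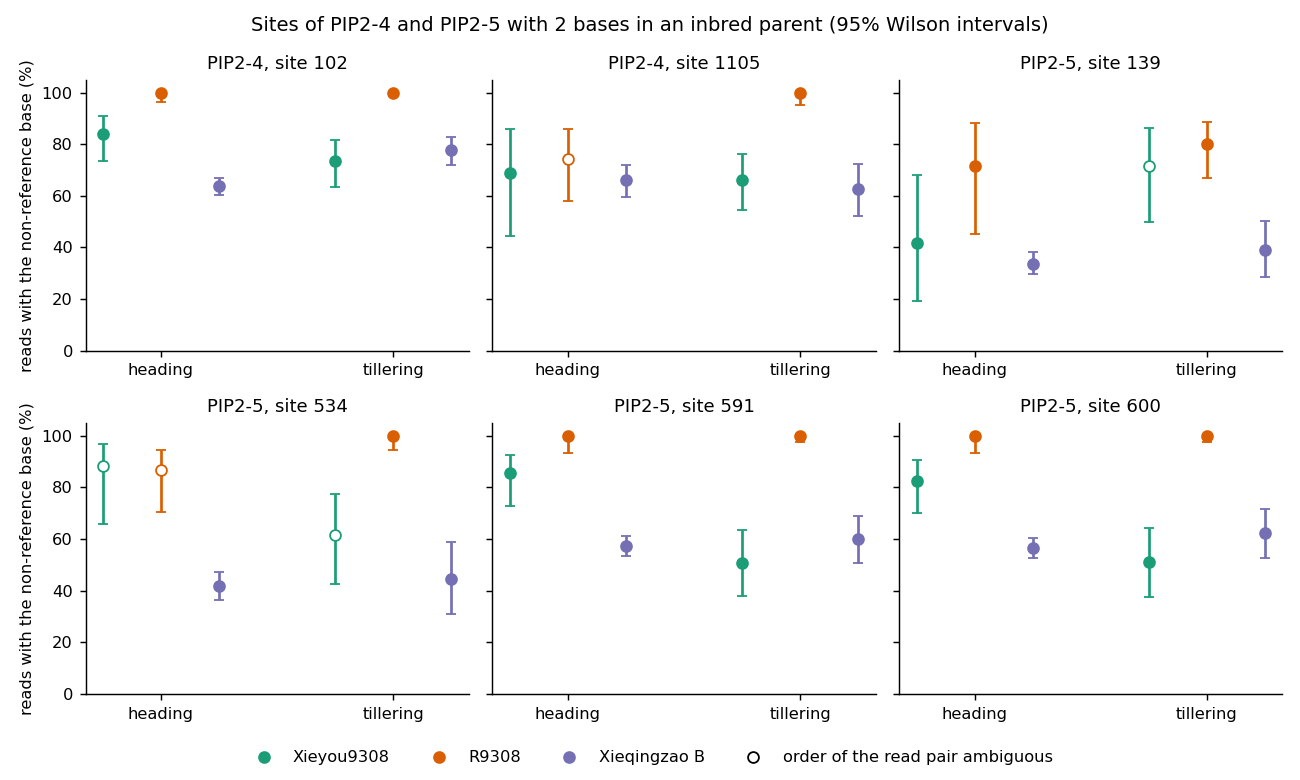
Percent of reads with the non-reference base at 6 sites of PIP2-4 and PIP2-5 (vertical axis) at heading and at tillering, with 95% Wilson intervals. Open points are read pairs whose order is ambiguous. At site 600 of PIP2-5, Xieqingzao B was mixed at both stages, with 56.6% and 62.5%, while R9308 was at 100% at both.

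PIP1-2 had a related case at C587A. The hybrid carried C and A, with 109 reads for A and 174 for C at heading, or 38.5% A (33.0 to 44.3%), and 60 for A and 101 for C at tillering, or 37.3% A (30.2 to 45.0%). Xieqingzao B had only A, in 1522 reads at heading and 505 at tillering, and R9308 had no call. The A share of the hybrid differed little between stages, but without a base in R9308 this site was not counted among the allele comparisons.

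With only sites that carry a single base in all 6 columns, PIP2-5 in Xieqingzao B kept more depth at heading, with a log2 ratio of 2.79, and PIP2-4 had 1.68. In R9308 the stage ratio of PIP2-5 was -0.93 and that of PIP2-4 was -1.20 on such sites. PIP2-2 in the hybrid, left with its site nearest the 3′ end, had a stage ratio of 0.15 and was no longer past 2-fold.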

How the data were processed

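Root RNA was sequenced as paired-end reads, trimmed, and mapped by the authors with RSEM to the IRGSP reference genome of Nipponbare. The deposited table gives positions along transcripts. The submitters' processing notes name CASAVA 1.8 and SAMtools 0.1.16. The SNP caller's role and settings are not given in the sources used here. For each pool of 2 roots the deposited table lists the called bases, how many reads carried them, and the caller's quality score, as the authors wrote it. Read depths and pairs were taken as deposited.

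Depth was scaled to the column total over all sites and summed over the sites of a transcript with a depth in all 6 columns. A difference was counted at 2-fold. The 95% interval of a depth ratio at a site was exact (Clopper-Pearson), and that of an allele or base share was a Wilson interval. SNPs needed 1 base in each parent, at least 10 reads in each parent, at least 20 reads and both alleles in the hybrid, and a quality of at least 20. Alleles were tested with exact binomial (threshold 0.01), exact conditional and Fisher tests, the last 2 with Benjamini-Hochberg adjustment (0.05). Intervals cover counting error only. Whether PCR copies of a molecule were removed is not known here, and where they were counted as separate reads the intervals are too narrow.

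All 10 genes were named, each by its transcript with the most complete sites. The members and lists were chosen with earlier results of these data known. Names came with the locus identifiers and are spelled as in RefSeq (ASM3414082v1), which does not carry these identifiers. Lists of other aquaporins and of tissue markers were not used here, because no table at hand annotates their identifiers, so the tissue is as labelled. Sequences were not used here. There were 36 alternatives fixed at the start and 2 chosen after seeing the data. Scripts were tested on simulated data. The computations used scipy 1.17.1 for tests, pandas 2.3.3 and numpy 2.4.6 for tables, and matplotlib 3.10.9 for figures, under Python 3.11.15.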

Additional observations from a re-analysis of the deposited data

Results flagged for a closer look

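In 5 cases the log2 ratio of heading over tillering of a PIP gene, and the 95% counting interval of its best covered site, lay above 0 in one genotype and below 0 in another. With a single pooled column per genotype and stage, none of these differences was tested. Each pair of the 3 genotypes was examined in each of the 6 PIP genes and in no other transcript. How often other transcripts meet this rule is therefore not known, and the count stands without a comparison. For PIP2-5 the log2 ratio of heading over tillering was 2.57 in Xieqingzao B and -1.13 in R9308, a difference of 3.71. For PIP2-4 it was 1.68 in Xieqingzao B and -1.19 in R9308, a difference of 2.87. PIP2-4 summed over its sites also ran opposite in Xieyou9308, at -0.55, and Xieqingzao B, a difference of -2.23. In Xieyou9308, however, its 20 sites ranged from -2.21 to 0.73, with 5 above 0 and 15 below. The best covered site, position 1054, lies towards the 3′ end, so the direction in the hybrid depends on the position. For PIP1-2 the ratio was 1.28 in Xieqingzao B and 0.96 in Xieyou9308, against -0.43 in R9308. Xieqingzao B thus exceeded R9308 by 1.70 and Xieyou9308 exceeded R9308 by 1.38. All 5 sites of PIP1-2 behind these ratios lie between positions 215 and 400. Xieyou9308 at tillering had relatively less depth early in transcripts than the other columns. How far the hybrid ratio of 0.96 rests on this was not tested.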

How the results depend on the processing

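Of 90 counts obtained under the alternatives, 83 stayed within 1.5 times of the count reported. Shares of all transcripts are given for the reported setting only, so counts under the alternatives stand without them. At tillering 5 genes were past the threshold against the mid-parent with column totals over the retained SNPs, and 5 at a 1.5-fold threshold, which also passed 1 gene between the parents at tillering. With only the site nearest the 3′ end, chosen after seeing the data, Xieyou9308 had 4 genes past 2-fold between heading and tillering (1 higher, 3 lower). The parents had 1 at tillering, and the hybrid against the mid-parent had 1 at tillering (PIP1-2, whose last site is at position 400). With the last site alone, the stage ratio of PIP2-5 in R9308 turned to 0.66, on 11 reads at heading and 9 at tillering. Other scalings shifted the median log2 ratio of all transcripts by up to -0.22, between the parents at tillering with totals over the retained SNPs, where PIP1-2 and PIP2-2 changed sign, as did PIP2-1 against the mid-parent at tillering. With at least 40 hybrid reads and 20 parental reads required at both stages, 0 PIP SNPs were left and so 0 could be counted as differing from the parental ratio at heading. This came from the 31 hybrid reads of C493T at tillering, as all 3 SNPs exceeded these minimums at heading. Of 378 gene ratios, 67 moved beyond the counting interval of the best covered site or, against the mid-parent, beyond the set margin of 1.1-fold, and 1 reversed. No paired analysis was possible because both roots of a genotype and stage were pooled into 1 column, and for that reason no root could be left out. At tillering the hybrid allele comparison rested on the 31 reads of C493T, the only SNP that passed. G514A and A32G had 34 and 287 hybrid reads at that stage but no call in Xieqingzao B.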
